A study of Mus musculus with 2 samples.

Results

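Promoter accessibility of 32 germline and meiosis genes was read from DNase-seq of mouse brain cortex. The genes are a named list of factors of meiosis, the piRNA pathway, sperm and egg formation, and they are 32 of the 21938 protein-coding genes of GENCODE M21 that were scored in the same way. The strain was B6CASTF1/J, and 2 females aged 10 days each gave 1 library from the left cerebral cortex, labelled as biological replicates 1 and 2. They make up a single group with no treatment, mutation or control, so no condition was compared and no p-value is given; values are set side by side per library, with the SD over n = 2. B6CASTF1/J is a first-generation cross of C57BL/6J and CAST/EiJ, reads were not assigned to either parental copy, and both libraries carry 1 donor identifier, that of the strain. DNase-seq marks DNA that the enzyme DNase I can cut because no nucleosome covers it; the signal of a peak is the authors' value for how strongly a stretch was cut, and a footprint is a short run of protected bases inside cut DNA. Tissue was used whole, so a peak in few cells and a weak peak in many cells cannot be told apart.

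Germline genes are made in sperm and egg precursors and kept silent in the body's other tissues. Many of them have CpG-rich promoters, a class that in most other genes stays open in every tissue; at germline promoters, DNA methylation and a Polycomb complex built around E2F6, MGA and MAX are known to hold the gene shut in somatic cells. The encoded proteins copy and cut chromosomes for recombination, hold paired chromosomes together, guide piRNAs to transposons, or repackage the sperm genome.

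For each gene, a peak was counted when at least 1 bp of it lay within 500 bp of an annotated start site, and it was required in both libraries. The start sites were then split into the gene's own 5′ end, meaning its outermost start or the start of its principal transcript, and all other starts inside the gene, and each peak was checked for starts of neighbouring genes within 500 bp. Each library came with 2 peak lists. In replicates 1 and 2, the stricter list had 60071 and 70563 peaks, and the larger list had 109563 and 121943. The median signal of a stricter peak was 0.830 in replicate 1 and 0.925 in replicate 2, which gives the scale for the values below. As a check of the tissue label, 5 of 6 neuronal marker genes had a start-site peak in both libraries, with 2.49 and 3.04 at Snap25; the sixth, Rbfox3, had one in the stricter list of replicate 2 alone. The counts were 2 of 5 for astrocyte markers, 3 of 5 for the oligodendrocyte lineage, and 1 of 4 each for microglia and vessel cells. Over all protein-coding genes the share was 55.2%, which the neuronal share exceeded, the oligodendrocyte share was near, and the other shares were under.

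Most germline promoters were closed. Of the 32 genes, 7 (21.9%) had a stricter-list peak within 500 bp of any start in both libraries, against 55.2% of all protein-coding genes. At the own 5′ end the count was 4 of 32 (12.5%), against 53.1% of all genes. When peaks with another gene's start within 500 bp were also set aside, 1 germline gene was left (3.12%), against 37.8% of all genes. In the opposite direction, 24 of 32 (75%) lacked a stricter peak at every start in both libraries, against 40.2% of all genes. In the larger lists the numbers were 8 of 32 (25%) at any start, against 61.0% of all genes, and 5 of 32 (15.6%) at the own 5′ end, against 58.9%. The 7 genes were the cohesin genes Smc1b and Stag3, the spermatogenesis genes Tex14, Tex15 and Brdt, the RNA-binding gene Dazl and the piRNA gene Piwil4, and the larger lists added the recombinase gene Dmc1.

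**Figure D1:**
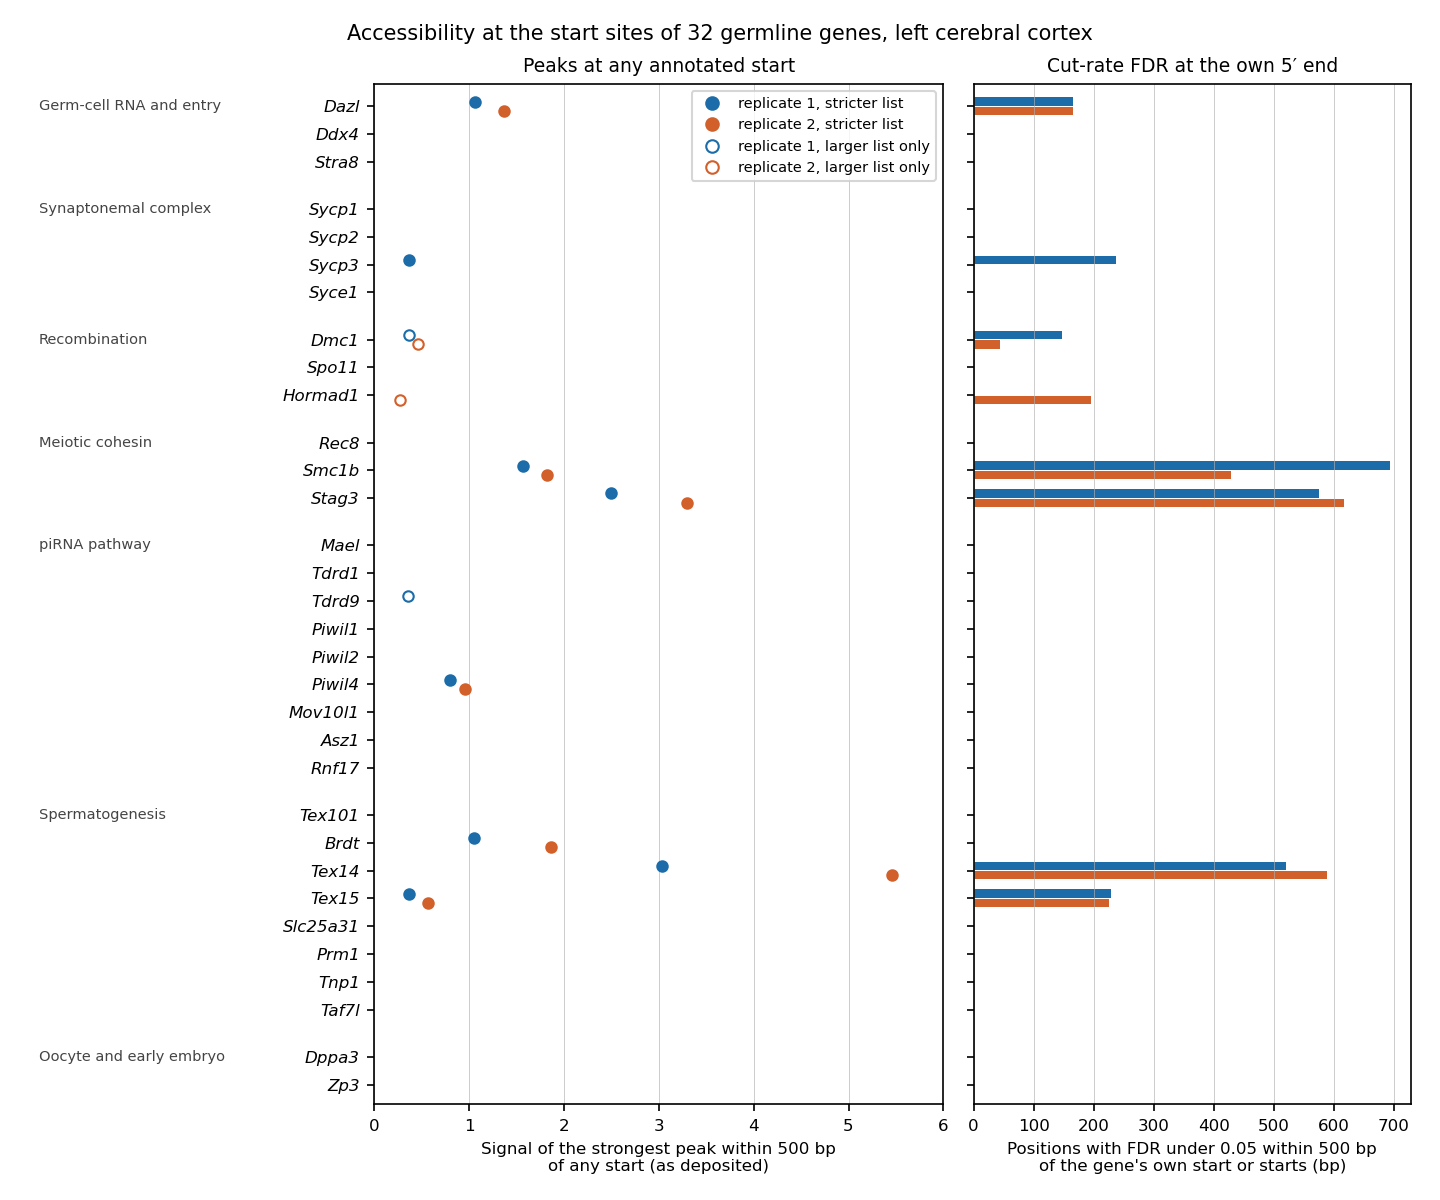
Left, signal of the strongest peak within 500 bp of any start (as deposited, horizontal axis) for each of the 32 genes, grouped by role, with replicate 1 in blue and replicate 2 in orange; filled points are stricter peaks and open points are peaks of the larger list alone. Right, number of base pairs with a cut-rate FDR under 0.05 within 500 bp of the gene's own start or starts; 24 of 32 genes have none in either library, and Tex14 reaches the highest peak signal, 3.04 in replicate 1 and 5.46 in replicate 2.

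Of the 3 meiotic cohesin genes, 2 were called at any start, near the 55.2% of all genes, and 0 with no other gene's start near the peak. Cohesin is a ring that holds sister chromatids together, and in meiosis some of its subunits are replaced by germline versions. Stag3, the germline STAG subunit, had a stricter peak of signal 2.49 in replicate 1 and 3.30 in replicate 2 (2.89 ± 0.570, SD, n = 2), stronger than 89.9% and 90.1% of all stricter peaks of those libraries. It lay at chr5:138280021-138280220 in replicate 1 and chr5:138279981-138280380 in replicate 2, on the mm10 build, with its centre 120 and 60 bp upstream of the outermost Stag3 start at 138280240. In replicate 1 the peak falls between the starts of Stag3 and Gpc2, a cell-surface glypican gene read in the opposite direction. In replicate 2 it covers the outermost Stag3 start, with 141 bp inside the gene, and reaches over Gpc2 starts as well. The annotated Gpc2 starts lie 235 to 278 bp from that of Stag3, and a start of the gene model Gm43720 lies 282 bp away. The nearest start to the peak's centre was that of Gpc2 in replicate 1, 116 bp away, and that of Stag3 in replicate 2, so the 2 libraries gave different owners for 1 open region.

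Smc1b, the germline SMC subunit of the ring, had signals of 1.56 and 1.82 in replicates 1 and 2 (1.69 ± 0.181, SD, n = 2), above 79.5% and 78.3% of the stricter peaks. The peak lay at chr15:85131961-85132180 in replicate 1 and chr15:85131981-85132180 in replicate 2, with its centre 106 and 116 bp upstream of the Smc1b start at 85131964. The same interval held both starts of Ribc2, a gene of ciliary microtubules read the other way, at 114 and 139 bp from the Smc1b start, and the centre was 8 and 2 bp from a Ribc2 start. By the nearest start, this peak belonged to Ribc2 in both libraries. Rec8, the germline kleisin subunit that closes the ring, had no peak in any list and no position with an FDR under 0.05 within 500 bp of its own start; its nearest stricter peak was 13857 bp away in replicate 1 and 13837 bp in replicate 2.

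Tex14, needed for the bridges between dividing male germ cells, carried the strongest peak of the 32 genes, again next to a neighbour. Its signal was 3.04 in replicate 1 and 5.46 in replicate 2 (4.25 ± 1.71, SD, n = 2), above 92.7% and 95.6% of stricter peaks. Both libraries placed it at chr11:87404441-87404660, with the centre 514 bp upstream of the Tex14 start at 87405065 and 28 bp from a start of Rad51c, a DNA-repair gene read in the opposite direction. The near edge was 405 bp from the Tex14 start, so the peak counted for Tex14 by its edge but not by its centre. At the Tex14 start itself, the stricter lists had no peak; the larger list of replicate 1 had one at chr11:87404821-87405085 with a signal of 0.540, over a further Rad51c start 111 bp from that of Tex14, and the larger list of replicate 2 had none there.

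The promoter sequences of these 3 genes are given next. They are printed as the RefSeq windows of 250 bp before to 50 bp after the RefSeq start (GRCm38.p6, the mm10 assembly), 5′ to 3′ on the gene's strand, and capitals mark bases inside a footprint of either library. The windows are chr5:138280259-138280558 on the plus strand for Stag3, chr15:85131908-85132207 on the minus strand for Smc1b and chr11:87404815-87405114 on the plus strand for Tex14.
Stag3: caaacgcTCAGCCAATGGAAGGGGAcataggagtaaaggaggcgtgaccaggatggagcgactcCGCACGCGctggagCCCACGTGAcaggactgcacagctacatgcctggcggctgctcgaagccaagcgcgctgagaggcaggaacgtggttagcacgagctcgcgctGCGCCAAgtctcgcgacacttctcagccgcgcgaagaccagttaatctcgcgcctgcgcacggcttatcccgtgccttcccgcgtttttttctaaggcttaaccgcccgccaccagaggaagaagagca
Smc1b: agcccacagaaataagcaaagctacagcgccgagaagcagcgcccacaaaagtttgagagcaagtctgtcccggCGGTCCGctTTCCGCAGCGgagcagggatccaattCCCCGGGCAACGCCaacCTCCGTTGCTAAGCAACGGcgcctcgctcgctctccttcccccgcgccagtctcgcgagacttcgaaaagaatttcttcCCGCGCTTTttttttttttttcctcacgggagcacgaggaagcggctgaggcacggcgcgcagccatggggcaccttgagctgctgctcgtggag
Tex14: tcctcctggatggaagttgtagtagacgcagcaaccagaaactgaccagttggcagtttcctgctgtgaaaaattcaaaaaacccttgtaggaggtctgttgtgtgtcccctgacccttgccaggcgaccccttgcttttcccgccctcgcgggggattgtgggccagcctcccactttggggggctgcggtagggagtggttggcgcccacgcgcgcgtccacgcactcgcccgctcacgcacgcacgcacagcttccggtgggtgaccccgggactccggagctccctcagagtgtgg
Footprints covered 42 of the 300 bases of Stag3, 11 of them in both libraries, and 59 of the 300 bases of Smc1b, 18 of them in both libraries. Tex14 had 0 footprint bases in its window, and its stricter peak lies upstream of the window, toward Rad51c. The RefSeq start of Stag3 is 269 bp downstream of the outermost GENCODE start, so its window begins where the stricter peak of replicate 1 has already ended.

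**Figure D2:**
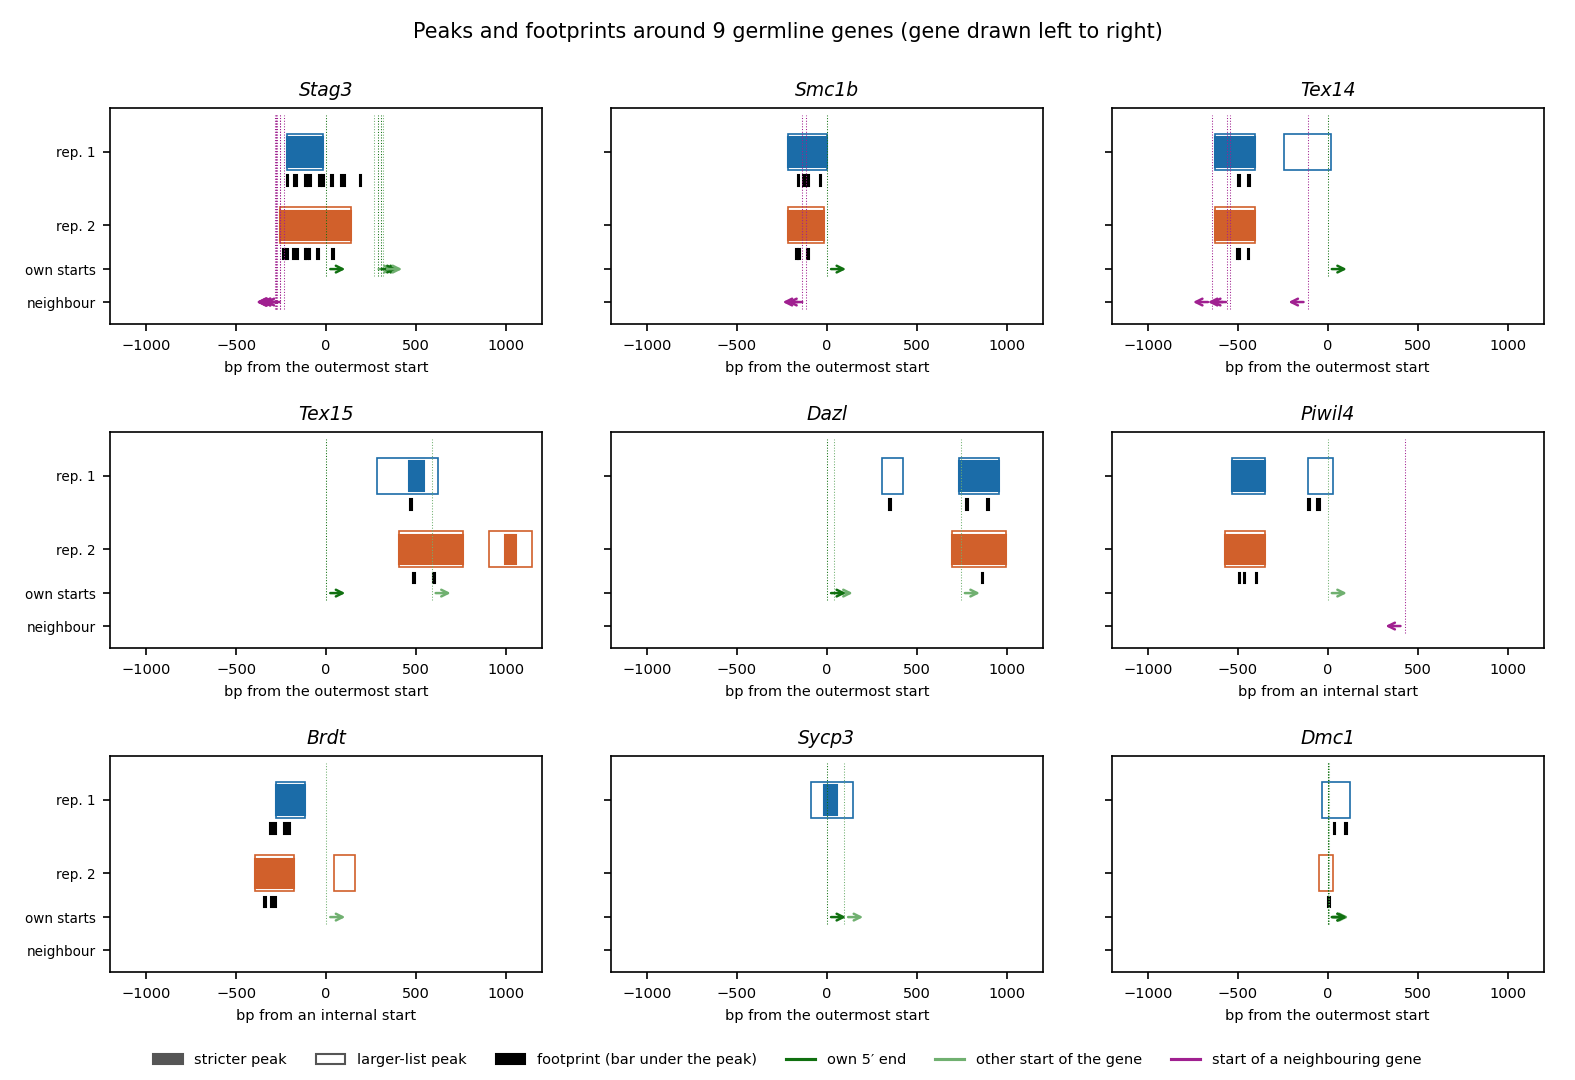
Peaks and footprints around 9 germline genes, each drawn so that the gene reads left to right; the horizontal axis is the distance in bp from the gene's outermost start, or from an internal start for Piwil4 and Brdt. Filled boxes are stricter peaks, open boxes larger-list peaks, black bars footprints within 500 bp of a start of the gene, and arrows the annotated starts of the gene (green) and of neighbours (purple); the peaks of Stag3, Smc1b and Tex14 stand over or beside purple arrows that point away from the gene.

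Open 5′ ends among these genes were mostly shared with a neighbour. Of the 32, 3 had another protein-coding gene's start within 500 bp of their own, namely Stag3, Smc1b and Tex14, and 3 of 3 had a stricter peak there in both libraries. Of the 29 others, 1 had one (3.45%). Among all protein-coding genes the shares were 2422 of 2784 (87.0%) with such a neighbour and 9237 of 19154 (48.2%) without. Put another way, 3 of the 4 germline genes with a peak at the own 5′ end (75%) had no peak free of another gene's start, against 3363 of 11659 such genes overall (28.8%). Whether the neighbour has a part in the opening was not tested. Tnp1, Piwil1 and Piwil2 have non-coding starts close to one of their own, an antisense RNA at 127 bp, an unclassified transcript at 145 bp and a small nuclear RNA at 497 bp, and had no peak in any list.

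Tex15 was the only one of the 4 whose peak had no other gene's start within 500 bp. Tex15 acts in male meiosis and in piRNA-guided silencing of transposons. Its signal was 0.367 in replicate 1 and 0.561 in replicate 2 (0.464 ± 0.137, SD, n = 2), which made it the weakest of the 7, above 4.46% and 20.2% of stricter peaks. The peak lay inside the gene, at chr8:33517201-33517280 in replicate 1, all intron, and at chr8:33517141-33517500 in replicate 2, with 256 bp of intron and 104 bp of untranslated exon. Its edge was 463 and 403 bp from the outermost start at 33516738, while its centre was 84 and 4 bp from a second start of the gene at 33517324. It therefore counted for the own 5′ end by its edge, and for the internal start by its centre. Replicate 2 held a further weak stricter peak, 0.303, at chr8:33517732-33517794.

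Dazl, Brdt and Piwil4 had peaks in both libraries that stood at internal starts and not at the 5′ end. Dazl, an RNA-binding protein of germ-cell development, had signals of 1.06 and 1.36 in replicates 1 and 2 (1.21 ± 0.216, SD, n = 2). The peaks lay at chr17:50292681-50292900 and chr17:50292641-50292940, across an internal start of the gene at 50292892, and their centre was 846 bp inside the outermost start at 50293636. They covered 148 and 228 bp of intron, and 72 bp of untranslated exon in each library. At 736 and 696 bp from the own start they missed the 500 bp window, in which Tex14 (405 bp) and Tex15 (463 and 403 bp) fell. The CpG-dense 5′ end of Dazl was not without cuts: 165 positions within 500 bp of it had an FDR under 0.05 in replicate 1 and 165 in replicate 2, the lowest FDR being 0.0136 and 0.000622, and the larger list of replicate 1 had a peak of 0.325 at chr17:50293212-50293330.

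Brdt, a testis bromodomain protein that binds acetylated histones, had signals of 1.05 and 1.86 in replicates 1 and 2 (1.45 ± 0.570, SD, n = 2). The peaks, chr5:107359561-107359720 and chr5:107359441-107359660, lay 28482 and 28392 bp inside the gene, near the start of a non-coding transcript of the same gene at 107359837. They covered 126 and 114 bp of coding exon, and with starts of protein-coding transcripts alone Brdt was not counted. Piwil4, also called MIWI2, a nuclear PIWI protein that directs DNA methylation of transposons in male germ cells, had 0.803 and 0.955 (0.879 ± 0.108, SD, n = 2). Its peaks, chr9:14705421-14705600 and chr9:14705421-14705640, were intronic, 35210 and 35190 bp inside the gene and 440 and 460 bp upstream of an internal start at 14705070. The starts of an antisense RNA, Gm10706, were 868 and 888 bp away. Neither Brdt nor Piwil4 had a position with an FDR under 0.05 within 500 bp of its own 5′ end.

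The open stretches of these 4 genes differ in base composition, and they are printed where the stricter peaks of both libraries overlap (mm10, 5′ to 3′ on the gene's strand; capitals mark footprint bases of either library). They are chr8:33517201-33517280, plus strand, for Tex15, chr17:50292681-50292820, minus strand, for Dazl, chr9:14705421-14705600, minus strand, for Piwil4 and chr5:107359561-107359660, plus strand, for Brdt. The Dazl stretch leaves out the untranslated exon.
Tex15: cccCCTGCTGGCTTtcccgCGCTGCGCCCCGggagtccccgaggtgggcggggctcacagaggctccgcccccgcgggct
Dazl: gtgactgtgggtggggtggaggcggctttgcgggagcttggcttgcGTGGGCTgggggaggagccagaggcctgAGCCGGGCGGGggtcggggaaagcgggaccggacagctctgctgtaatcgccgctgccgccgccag
Piwil4: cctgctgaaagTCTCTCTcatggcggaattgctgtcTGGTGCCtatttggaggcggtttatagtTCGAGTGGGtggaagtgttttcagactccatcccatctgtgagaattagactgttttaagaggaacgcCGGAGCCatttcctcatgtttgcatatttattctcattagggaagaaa
Brdt: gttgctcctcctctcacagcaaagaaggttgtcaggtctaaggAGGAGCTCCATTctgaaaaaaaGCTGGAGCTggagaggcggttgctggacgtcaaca
The G and C content was 80% in the Tex15 stretch with 9 CpGs in 80 bases, 72.1% in Dazl with 12 CpGs in 140 bases, 45% in Piwil4 with 5 CpGs in 180 bases, and 52% in Brdt with 2 CpGs in 100 bases. The Tex15 and Dazl stretches are thus CpG-dense DNA just inside the gene, and those of Piwil4 and Brdt are not. None of the footprint bases shown was in a footprint of both libraries.

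The genes of recombination and of the synaptonemal complex, the protein ladder that zips paired chromosomes together, had 0 stricter peaks in both libraries, of 3 and 4 genes. Over all protein-coding genes, 55.2% had such a peak at any start. Dmc1, the meiotic recombinase, appeared in the larger lists alone, with 0.367 at chr15:79604983-79605140 in replicate 1 and 0.455 at chr15:79605081-79605158 in replicate 2, both over its start at 79605109. The nearest start of another gene was 10268 and 10326 bp away, and 147 and 44 positions near the start had an FDR under 0.05, the lowest being 0.00160 and 0.0374. Hormad1, an axis protein that monitors pairing, had a larger-list peak in replicate 2 alone, 0.273 at chr3:95559601-95559731, and Spo11, which makes the DNA breaks that start recombination, had none. Sycp3, a structural protein of the chromosome axis, had a stricter peak in replicate 1 alone, at chr10:88459551-88459627, 20 bp from its start at 88459569 and 9702 bp from the nearest start of another gene. That peak had a signal of 0.360, above 4.04% of the stricter peaks, with 237 positions under an FDR of 0.05 and no footprint; in replicate 2 the larger list had no peak there and 0 such positions were found. Sycp1, the transverse filament, Sycp2, a partner of Sycp3 in the axis, and Syce1, of the central element, had no peak in any list.

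Of the 9 piRNA genes, 0 had a stricter peak at the own 5′ end in both libraries, against 53.1% of all protein-coding genes. The piRNA pathway loads small RNAs onto PIWI proteins, which then find transposon transcripts. Besides the intronic peak of Piwil4, the other calls were larger-list peaks of replicate 1 alone. One, with 0.353, lay at chr12:112026034-112026099, at an internal start of Tdrd9, a helicase with a Tudor domain. The other, with 0.318, lay at chr9:14705041-14705177, over the internal Piwil4 start at 14705070, with 30 bp of coding exon and its centre 467 bp from the start of the antisense RNA. There was no peak in any list at the PIWI genes Piwil1 and Piwil2, at Mov10l1, a helicase that binds piRNA precursors, at Mael, which acts in transposon silencing, at Asz1 of the mitochondrial processing site, or at the Tudor-domain genes Tdrd1 and Rnf17. The nearest stricter peak was 1918 and 1934 bp from an own start of Piwil1, 3750 and 3749 bp for Mov10l1, and 3869 bp in both libraries for Tdrd1.

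The remaining genes without a peak in any list were Ddx4, the germ-granule helicase known as VASA, Stra8, which switches germ cells into meiosis, the sperm-surface gene Tex101, the sperm ADP/ATP carrier gene Slc25a31, the protamine and transition-protein genes Prm1 and Tnp1 that replace histones in sperm, Taf7l, an X-linked germ-cell form of a general transcription factor, Dppa3 of the oocyte and early embryo, and Zp3 of the egg coat. In all, 21 of the 32 genes (65.6%) had no peak at any start in any of the 4 lists, against 35.0% of all protein-coding genes. The most isolated was Taf7l, 72024 and 65291 bp from the nearest stricter peak. The median distance from the own 5′ end to the nearest stricter peak was 8666 bp in replicate 1 and 9217 bp in replicate 2 for the 32 genes, against 123 and 54 bp over all genes. The FDR positions come from the same libraries as the peaks and are not a separate check on them. They gave a like count: 6 of 32 genes (18.8%) had at least 1 within 500 bp of the own 5′ end in both libraries, against 59.8% of all genes. Those 6 were Dazl, Dmc1, Smc1b, Stag3, Tex14 and Tex15.

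Germline promoters were closed at CpG contents at which most other promoters were open. CpG content was measured as the CpG count over that expected from the C and G counts, within 500 bp of the outermost start. The median of the 32 genes was 0.60 (range 0.209 to 0.809), against 0.552 for all genes. Over the deciles of all genes, the share with a stricter peak at any start climbed with CpG content, 5.24% in the lowest decile, 74.1% in the sixth and 92.0% in the highest. Of the 16 germline genes at or above 0.6, 4 had such a peak (25%), against 87.0% of the 10078 genes overall in that class; at the own 5′ end the counts were 3 of 16 (18.8%), against 85.8%, and with no other gene's start near the peak 0 of 16, against 57.8%. In the larger lists, 5 of the 16 were called at any start (31.2%), against 91.9%, 4 at the own 5′ end (25%), against 91.1%, and 1 with no other gene's start near the peak (6.25%), against 63.2%. Footprints in both libraries stood at a start of 5 of the 16 (31.2%), against 89.9%, and at the own 5′ end of 4 (25%), against 88.6%, while 5 (31.2%) had FDR positions there, against 91.8%. Every one of these shares was under that of other CpG-rich genes. Of the 16 germline genes under 0.6, 3 had a peak at any start (18.8%), against 28.1% of the 11860 genes overall in that class, and 1 at the own 5′ end (6.25%), against 25.4%. The class boundary ran between Mov10l1 at 0.602 and Tex15 at 0.597.

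**Figure D3:**
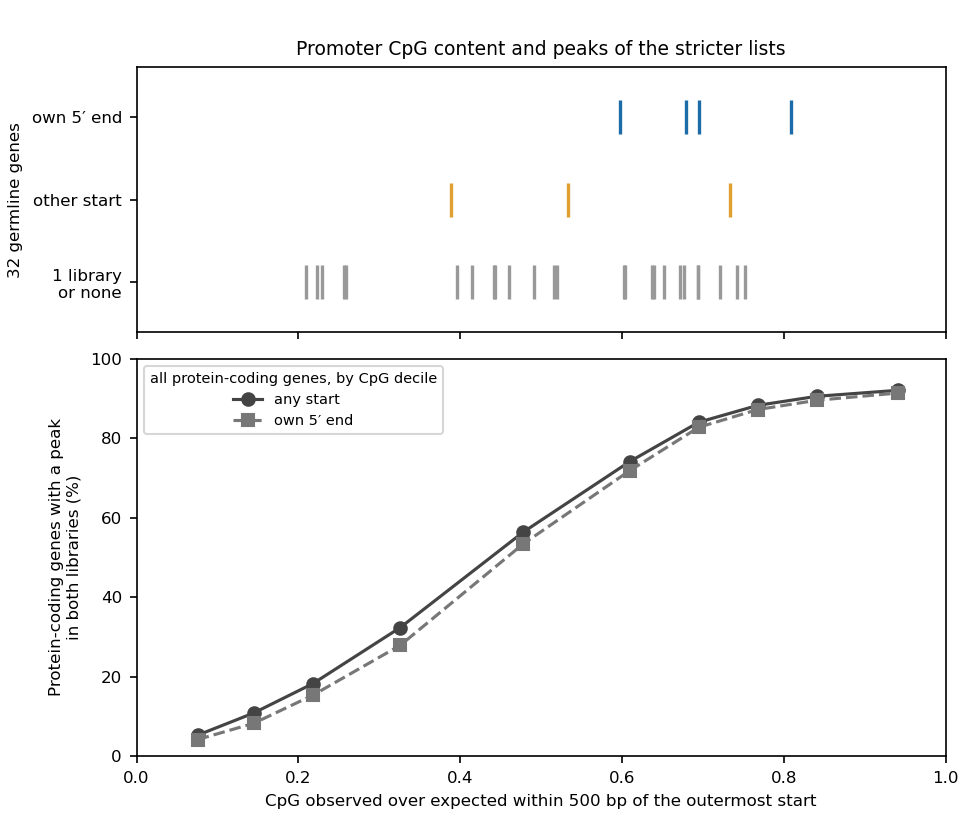
Top, each tick is 1 of the 32 germline genes placed by the CpG observed over expected of its promoter (horizontal axis), in 3 rows: stricter peak at the own 5′ end in both libraries, at another start in both libraries, and in 1 library or none. Bottom, the share of all protein-coding genes with a stricter peak in both libraries (percent) in each CpG decile, at any start and at the own 5′ end. It reaches 92.0% at any start in the highest decile, which holds 0 of the 32 genes. Closed germline genes extend up to 0.753, in decile 8, where the share at any start is 88.2%.

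Of the 16 CpG-rich germline genes, 9 had no peak in any list: Sycp1, Sycp2, Mael, Tdrd1, Mov10l1, Asz1, Ddx4, Slc25a31 and Taf7l. Of the 16 under 0.6, 12 had none. Over all protein-coding genes of any CpG content 35.0% had none, and that share was not counted for each CpG class. The 3 closed promoters with the highest CpG content are printed to show what such DNA looks like; they were Slc25a31 (0.753), Ddx4 (0.742) and Sycp1 (0.721). The windows are again those of RefSeq on GRCm38.p6, chr3:40708621-40708920 on the plus strand for Slc25a31, chr13:112652261-112652560 on the minus strand for Ddx4 and chr3:102936051-102936350 on the minus strand for Sycp1. Capitals mark CpG dinucleotides.
Slc25a31: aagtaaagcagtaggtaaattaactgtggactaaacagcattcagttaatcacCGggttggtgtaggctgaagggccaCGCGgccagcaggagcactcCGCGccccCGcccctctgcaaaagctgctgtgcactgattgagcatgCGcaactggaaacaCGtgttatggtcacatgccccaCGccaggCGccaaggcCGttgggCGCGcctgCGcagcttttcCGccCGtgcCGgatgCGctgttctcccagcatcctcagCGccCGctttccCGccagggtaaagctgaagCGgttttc
Ddx4: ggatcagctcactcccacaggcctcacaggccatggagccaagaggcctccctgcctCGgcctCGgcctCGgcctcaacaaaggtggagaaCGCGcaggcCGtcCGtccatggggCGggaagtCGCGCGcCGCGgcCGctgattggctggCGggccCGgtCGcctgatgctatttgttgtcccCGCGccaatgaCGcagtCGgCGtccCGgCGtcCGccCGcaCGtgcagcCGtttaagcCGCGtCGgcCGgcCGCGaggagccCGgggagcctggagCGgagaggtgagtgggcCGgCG
Sycp1: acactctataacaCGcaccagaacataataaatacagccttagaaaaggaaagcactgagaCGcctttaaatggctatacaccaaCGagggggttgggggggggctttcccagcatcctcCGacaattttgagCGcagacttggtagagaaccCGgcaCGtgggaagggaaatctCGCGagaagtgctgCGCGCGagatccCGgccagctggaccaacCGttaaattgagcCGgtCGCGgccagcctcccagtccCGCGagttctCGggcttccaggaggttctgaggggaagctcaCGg
Ddx4 had 38 CpGs in 300 bases and a G and C content of 72%, Slc25a31 had 22 CpGs and 59.7%, and Sycp1 had 21 CpGs and 56.7%. The windows of Stag3, Smc1b and Tex14 printed above held 30, 29 and 20 CpGs. The closed windows were picked for their high CpG content, so this overlap in CpG number does not describe closed genes in general. Tex15, which also had a peak at the own 5′ end, had no RefSeq window. The CpG value depends on the start used for Spo11, whose outermost start gave 0.229 while another of its own starts gave 0.633.

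The peaks of the 7 called genes also had a lower median signal than those of all called genes. The mean of the 2 libraries had a median of 1.45 over the 7 (range 0.464 to 4.25), against 2.89 over the 12105 called protein-coding genes. Of the 7, Tex14 (4.25) stood above the median of all called genes and Stag3 (2.89) stood at it. For genes with a peak in a library, the medians were 1.06 against 2.27 in replicate 1 and 1.82 against 3.21 in replicate 2. The signal was higher in replicate 2 at 7 of 7 called genes. A scaling by the authors stands behind each library's values, and the median over all called genes was higher in replicate 2 as well.

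Footprints were found at 8 of the 32 genes in both libraries (25%), against 58.2% of all genes, and at the own 5′ end of 5 (15.6%), against 56.0%. The 8 were the 7 genes with a stricter peak and Dmc1, and the other 24 had none in either library. Stag3 had the most, 10 in replicate 1 and 8 in replicate 2. Smc1b had 4 and 3, Brdt 4 and 3, Tex14 3 and 3, Dazl 3 and 1, Piwil4 2 and 3, Tex15 1 and 2, and Dmc1 2 and 1. At 4 genes, Stag3, Smc1b, Tex14 and Brdt, a footprint of replicate 1 overlapped one of replicate 2 by at least 1 bp. At Smc1b these were chr15:85132063-85132081 in replicate 1, which contained chr15:85132066-85132076 in replicate 2, and a pair that shared bases 85132118 to 85132124. At Dazl, Piwil4, Dmc1 and Tex15 every footprint was in 1 library alone, so no position was protected in both.

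The letters of binding motifs named for known regulators of germline promoters were searched on both strands of the RefSeq promoter windows, which 27 of the 32 genes had; Piwil2, Spo11, Tex15, Rnf17 and Dppa3 were not searched. The motifs were TCCCGC, named for E2F factors, CACGTG, the E-box named for MAX and MGA, TGACGTCA, named for CREB and CREM, and a core motif of CTCF, given here by name; no matches of different motifs overlapped. A gene counted once if any of its windows held the letters. All genes here are the 27025 with a RefSeq window, not the 21938 protein-coding genes scored for peaks. The E-box letters occurred at 14 of 27 germline genes (51.9%), against 8.09% of the 27025. Among genes with a window whose CpG value was at least 0.6 they were at 11 of 18 (61.1%), against 12.7% of 10365. The E2F letters occurred at 12 of 27 genes (44.4%), against 22.0%, and at 10 of 18 genes with a CpG-rich window (55.6%), against 45.6%. The germline share thus stood above the share of all genes for both, and for E2F the gap was smaller within CpG-rich windows.

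**Figure D4:**
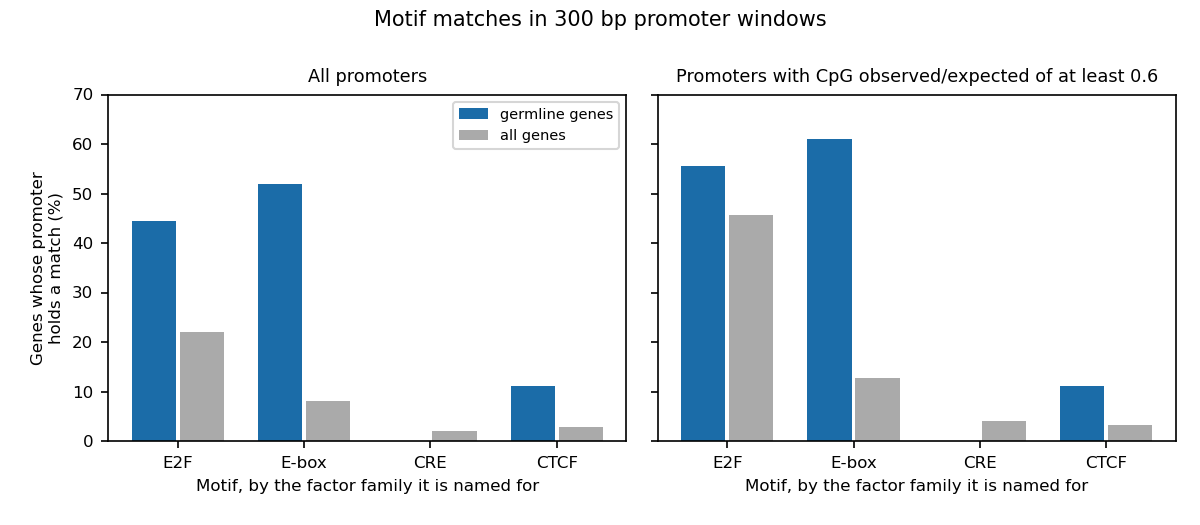
Share of genes (percent) whose 300 bp RefSeq promoter window holds the letters of each motif, for the germline genes (blue) and all genes (grey), over all windows (27 and 27025 genes) and over windows with CpG observed over expected of at least 0.6 (18 and 10365 genes). The gap at the E-box is the widest in both panels, 51.9% of germline genes against 8.09% of all genes with a window, and 61.1% against 12.7% among genes with a CpG-rich window.

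Both E2F and E-box letters stood at 8 germline genes (Ddx4, Sycp1, Sycp3, Mael, Hormad1, Stag3, Slc25a31 and Zp3), and 2.65% of all genes with a window held both. Of those 8, Stag3 alone had a stricter peak at any start in both libraries, against 21.9% of the 32 genes and 55.2% of all protein-coding genes. That peak is the one shared with Gpc2. The share with a peak was not counted for all genes that hold both letters. In the sequences printed above, the E-box can be read in Ddx4 at 29 bp and in Sycp1 at 94 bp upstream of the RefSeq start, and in Slc25a31 at 93 bp upstream. In Stag3 it lies 170 bp upstream, at chr5:138280339-138280344, inside the capitals of a footprint that was found in replicate 1 alone. The E2F letters of Smc1b, at chr15:85131999-85132004, overlap a footprint of replicate 1 alone. The remaining E-box and E2F matches overlapped no footprint. The letters of TGACGTCA were at 0 of 27 genes, against 2.03% of all genes with a window, and the CTCF motif at 3, Dazl, Sycp2 and Asz1 (11.1%, against 2.82%). A match is a run of letters and not a shown binding event.

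A second list of 40 germline genes, not among the 32, had a share at any start near that of the 32, with more of its peaks at the own 5′ end. A stricter peak in both libraries was found at any start of 7 of them (17.5%), against 55.2% of all genes, at the own 5′ end of 7 (17.5%), against 53.1%, and at 4 (10.0%) without another gene's start near the peak, against 37.8%. The 4 were Prdm9, which places recombination hotspots, with 5.80 and 10.3 in replicates 1 and 2, Msh5, of crossover formation, with 3.98 and 6.20, Mei4, of break formation, with 1.54 and 2.37, and Syce2, of the synaptonemal complex, with 0.726 and 1.02. The 3 with a neighbouring start were Gdf9, an oocyte growth factor next to the respiratory-chain gene Uqcrq, with 5.62 and 10.1, Ddx25, a testis helicase next to Pus3, with 1.06 and 2.00, and Tdrd5, a Tudor-domain gene overlapping an antisense RNA, with 0.706 and 1.03. The start nearest to the Gdf9 peak was that of a non-coding transcript of the gene. With starts of protein-coding transcripts alone Gdf9 was not counted. The peaks of Prdm9 and Msh5, which stood at their own starts with no neighbour, exceeded the start-site peak of each of the 32 genes in the same library.

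Somatic counterparts of the germline genes, chosen as paralogs or partners used in body cells, mostly had peaks. Of 13, 12 had a stricter peak at a start in both libraries (92.3%), against 55.2% of all genes and 87.0% of CpG-rich genes. The highest mean signals were those of 3 of the 5 cohesin genes in the list, Smc3 with 5.52 and 9.95, Stag1 with 5.62 and 8.72 and Rad21 with 4.38 and 7.12 in replicates 1 and 2. Stag3, at 2.49 and 3.30, stood between its somatic paralogs in both libraries, under Stag1 and above Stag2 at 1.63 and 2.48. That Stag3 peak is the one shared with Gpc2, whose start was the nearest to its centre in replicate 1. Mov10, the paralog of Mov10l1, was the exception, with 0.766 in replicate 2 and, in replicate 1, 0.560 in the larger list alone.

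All 15 genes of a list of known silencers of germline promoters had a stricter peak in both libraries (100%), again against 55.2% of all genes and 87.0% of CpG-rich genes. The strongest were Max, the DNA-binding partner of MGA, with 6.77 and 11.2, Cbx3, a reader of methylated histone H3, with 4.75 and 7.56, and Dnmt1, the enzyme that keeps DNA methylation through replication, with 4.46 and 6.87. That Cbx3 peak lay outside the gene body, where the strongest peak had 1.32 and 2.35 in replicates 1 and 2. A start of another gene, Hnrnpa2b1, lies within 500 bp of the outermost Cbx3 start. Mga had 3.36 and 5.91, Pcgf6 1.01 and 1.72, and E2f6 1.13 and 1.47. These values describe peaks near the starts of the silencers and do not measure their proteins or DNA methylation.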

How the data were processed

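Per the file descriptions, the authors deposited for each DNase-seq library 2 peak lists, 1 footprint list and 1 list of cut-rate FDR positions, made on mm10 from that library alone, without pooling. The deposited peak signal is 1 value per peak, scaled by the authors per library; all values are whole multiples of 0.00692 in replicate 1 and 0.00758 in replicate 2 (within 0.01 of a whole number), and depth is unknown beyond that. The deposited FDR (q-value) lists hold positions under 0.05, over 30.4 and 34.6 Mb. The deposited p-value column of the footprints is 0.01 in every row, so footprints were not ranked. Names, versions and thresholds of the aligner and callers are not given in the sources used here. Of the peak lists, the smaller peak list of each library was taken as stricter: the best FDR inside a peak never exceeded 0.000992 in replicate 1 or 0.000997 in replicate 2.

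Starts were taken from GENCODE M21 and promoter sequences from RefSeq (GRCm38.p6), with Python 3.11.15, NumPy 2.4.6, pandas 2.3.3 and matplotlib 3.10.9. Overlap counting was tested on simulated data. The libraries form 1 group, so counts, values and SDs are given with no test. The 32 genes, the other lists and the motifs were chosen with earlier results of these data known. All 32 genes were named, with every other germline gene called in both libraries and the 3 strongest of the somatic and silencing lists; a gene of the somatic list is not reported here. Alternatives were the window, the peak list, the stronger 50% of peaks, the starts used, the overlap rule and each library alone.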

Additional observations from a re-analysis of the deposited data

How the results depend on the processing

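At the own 5′ end, 4 germline genes were called. A window of 250 bp gave 2, and requiring the peak's centre in the window gave 2, both without Tex14 and Tex15. The following were added after seeing the data: with no other gene's start within 500 bp of the peak 1 was left, the same in the larger lists gave 2, and requiring the own start to be the nearest of all starts gave 0. Footprints at any start, in 8 genes, fell to 5 with a 250 bp window and to 4 when a footprint had to overlap one of the other library. Leaving out 1 library gave 7 to 8 genes at any start, 4 to 5 at the own 5′ end, 8 with footprints, 7 to 10 other germline genes and 12291 to 12943 protein-coding genes. The other alternatives stayed within 1.5 times of the count, from 5 to 8 genes at any start. No paired analysis was possible because the libraries form 1 group. With 2 libraries of unknown depth, a missing peak means that none was called at this depth, not that the DNA was closed in every cell.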

Other observations

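Several germline genes, with or without a peak at a start, held stricter peaks further inside the gene. Piwil1 had 2 stricter peaks in its body in both libraries, the strongest with 0.872 in replicate 1 and 0.955 in replicate 2. Zp3 and Mov10l1 had 1 each in both libraries, with 0.623 and 0.978 at Zp3 and 0.657 and 1.01 at Mov10l1. Tdrd9 had 2 in replicate 1 and 1 in replicate 2, the strongest 1.11 and 1.34, and Piwil4 held a peak of 2.84 and 3.40, stronger than the one near its internal start. Tex14 stood apart with 16 and 14 peaks over 150.8 kb of gene, the strongest 3.08 and 3.90, against a median of 0 peaks per gene over the 32 and 1 over all protein-coding genes. One of them, 1.88 at chr11:87426741-87427200 in replicate 1, came within 500 bp of an internal Tex14 start in that library alone, and its centre was 254 bp from a small nuclear RNA start.

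In the list of 40 other germline genes, 3 had a stricter peak in replicate 2 alone: Msh4 with 0.652, at an internal start, Pld6 with 0.667 and Meiob with 0.394. Replicate 2 also had more calls over all 21938 protein-coding genes. There, 12943 had a stricter peak at any start in replicate 2, 12291 in replicate 1 and 12105 in both. In 200 bp windows centred on the stricter peaks, the E2F letters TCCCGC were in 4 of 9 peaks near germline starts in replicate 1, against 12.1% of all stricter peaks, and in 5 of 8 in replicate 2, against 11.9%. All stricter peaks include those far from gene starts. The same letters were in the 300 bp promoter windows of 22.0% of all genes and of 45.6% of genes with a CpG-rich window. The E-box letters CACGTG were in 1 of 9 and 0 of 8 of these peaks, against 5.06% and 5.20%.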
